A study of Mus musculus with 8 samples.

Results

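Striated muscle holds its thin filaments at a set length and in register, and a small group of muscle proteins keeps them there. The 10 genes described here were grouped under that role, though not all of their products are thin filament proteins. They encode the kelch proteins Klhl31, Klhl40 and Klhl41, the leiomodins Lmod2 and Lmod3, and nebulin (Neb) with its relative Nrap. They also encode the Xin repeat proteins Xirp1 and Xirp2, and Lrrc39, an M-band protein that binds myosin. All 10 were measured, among 19938 genes with a probe set of their own. Each gene was represented by a probe set annotated to that symbol alone, and where there were several, by the one with the highest mean over all 8 arrays, which was a choice to be made for Klhl31 only. The genes were chosen with earlier results of these arrays known, and the probe set of Klhl31 was selected on its mean signal over the 8 arrays, a value that carries no test.

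Gastrocnemius, a calf muscle of mainly fast fibres, was taken from HDAC5 KO mice (4 samples) and from WT littermates (4 samples). HDAC5 KO mice lack histone deacetylase 5. Both genotypes were 30 weeks old, ate low-fat chow and received no further treatment. The numbered samples are not stated to be separate animals, so a p-value here reflects the spread from sample to sample, which may be technical. The study asked how HDAC5 bears on the transcription of interleukin 6 and of the genes it regulates.

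Nebulin runs along the thin filament and the leiomodins add actin at its pointed end. KLHL40 and KLHL41 are adaptor-like kelch proteins that, in mice, keep nebulin and leiomodin-3 from being degraded, and loss of NEB, LMOD3, KLHL40 or KLHL41 causes nemaline myopathy in humans. The Xin proteins and NRAP bind actin where filaments meet the membrane at fibre ends. Several of these genes are transcribed under MEF2, the factor family that class IIa deacetylases such as HDAC5 hold in check.

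Because HDAC5 acts on MEF2, the sequence before the start of each gene was searched for the MEF2 consensus, read on both strands. RefSeq (GRCm38.p6) gave a window for 7 of the 10 genes, with Lmod3, Neb and Xirp1 not among them. The 250 bases before the start held the consensus in 3 of the 7 windows, against 2.92% of all 32851 windows. The windows of those 3 genes are shown with the MEF2 match in capitals, followed by that of Klhl40, which had the largest difference between genotypes and holds no match in this window.

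Klhl41, chr2:69669870-69670119, plus strand: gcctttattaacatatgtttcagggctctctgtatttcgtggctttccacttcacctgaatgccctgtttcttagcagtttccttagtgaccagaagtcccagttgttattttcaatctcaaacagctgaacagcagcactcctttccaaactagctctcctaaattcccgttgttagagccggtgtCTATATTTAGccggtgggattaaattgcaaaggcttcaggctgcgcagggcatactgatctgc

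Xirp2, chr2:67445752-67446001, plus strand: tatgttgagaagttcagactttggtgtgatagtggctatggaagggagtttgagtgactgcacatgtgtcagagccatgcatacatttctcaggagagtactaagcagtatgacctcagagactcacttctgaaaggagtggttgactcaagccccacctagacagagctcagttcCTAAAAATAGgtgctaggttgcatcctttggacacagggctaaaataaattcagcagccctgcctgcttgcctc

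Lrrc39, chr3:116562733-116562982, plus strand: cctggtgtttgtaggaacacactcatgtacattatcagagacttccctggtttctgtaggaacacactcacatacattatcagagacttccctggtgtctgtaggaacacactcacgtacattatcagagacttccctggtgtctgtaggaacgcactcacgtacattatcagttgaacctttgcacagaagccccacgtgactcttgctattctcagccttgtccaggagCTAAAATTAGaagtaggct

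Klhl40, chr9:121777357-121777606, plus strand: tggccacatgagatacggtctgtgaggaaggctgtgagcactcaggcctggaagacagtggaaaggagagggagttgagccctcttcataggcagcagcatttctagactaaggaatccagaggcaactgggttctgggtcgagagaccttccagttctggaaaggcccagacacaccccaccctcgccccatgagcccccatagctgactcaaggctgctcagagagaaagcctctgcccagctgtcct

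The match reads CTATATTTAG in Klhl41, from 63 to 54 bases before the start, CTAAAAATAG in Xirp2, from 74 to 65 bases before, and CTAAAATTAG in Lrrc39, from 19 to 10 bases before. The E-box, CANNTG, the core that myogenic factors bind, lay in 6 of the 7 windows, all but that of Klhl31, and in 66.2% of all windows. None of the MEF2 matches overlapped an E-box. The CArG box, the consensus of serum response factor, had 0 matches in the 7 windows and matched 1.47% of all windows. A match of letters is not a binding site, and binding was not measured.

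The arrays were alike in range. Their medians lay between 7.69 and 7.77 and their maxima between 14.80 and 14.84 on the log2 scale, and any pair correlated at 0.988 to 0.995 over all probe sets. The targeted gene followed the labels. Hdac5 had signals of 8.32, 8.31, 8.31 and 8.39 in HDAC5 KO samples, against 9.94, 9.76, 9.83 and 9.80 in WT samples (difference -1.50, SE 0.059, limma adjusted p = 1.74e-07). It lies on chromosome 11, whereas the 10 genes lie on chromosomes 2, 3, 6, 9 and 19. The 12 markers of fast skeletal muscle fibres were bright, as the tissue label implies, with a mean signal of 14.24 to 14.28 in HDAC5 KO and 14.26 to 14.29 in WT samples, near the top of the arrays' range.

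None of the 10 genes passed the test at an adjusted p under 0.05. The test was limma over all 19938 genes with Benjamini-Hochberg adjustment, and 0.0652% of all genes passed it. At an unadjusted p under 0.05, 2 of the 10 were higher in HDAC5 KO muscle, where 4.72% of all genes were, and 0 of the 10 were lower, where 3.18% of all genes were. The same 2, Klhl40 and Lrrc39, were the genes whose HDAC5 KO values all lay above the WT values, as held for 2.91% of all genes. In 0 of the 10 did all HDAC5 KO values lie below WT, as they did for 1.99% of all genes. Since the genes were chosen with such results known, their count is a description. The mean was higher in HDAC5 KO muscle for 7 of 10 (51.4% of all genes), and the median difference was 0.058 against 0.0030 over all genes.

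**Figure D1:**
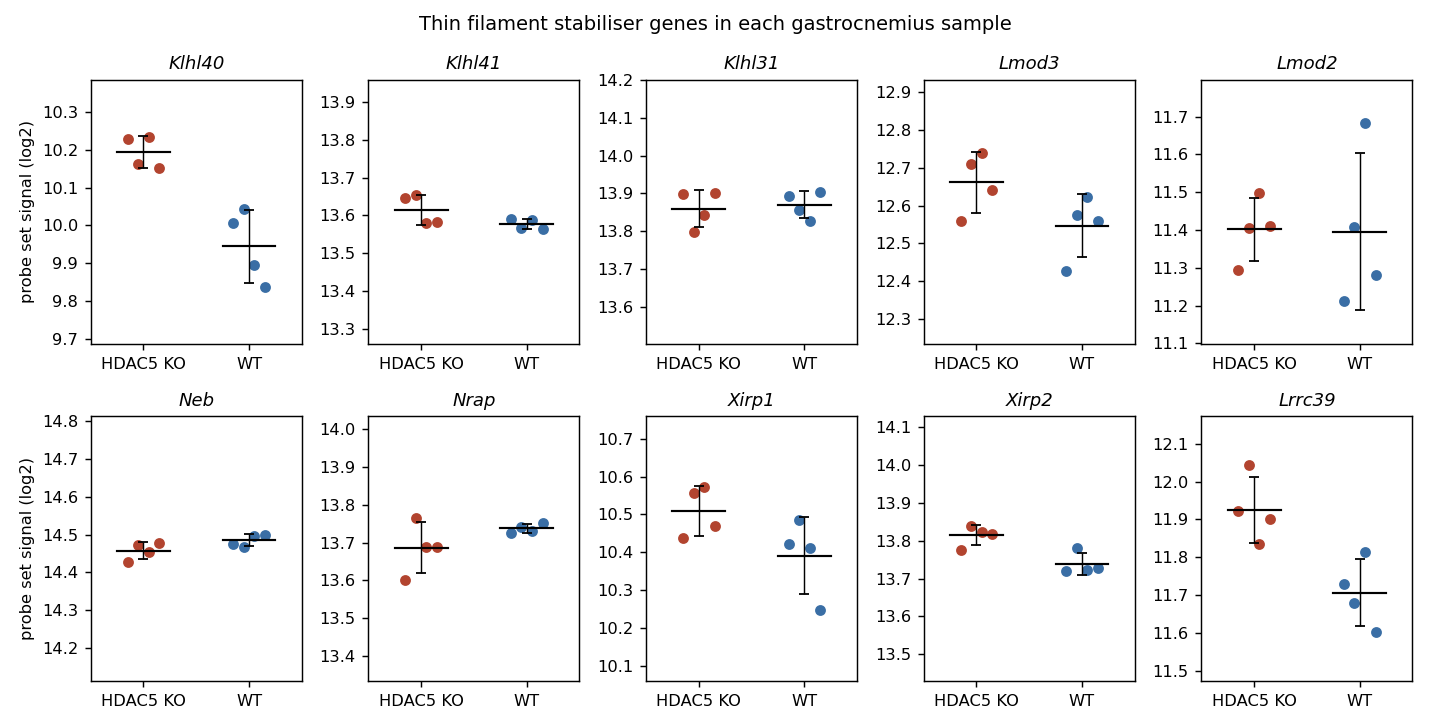
Signal of the 10 genes on the log2 scale in each sample, HDAC5 KO on the left and WT on the right of each panel; points are samples, the long bar is the mean and the whiskers are 1 SD (n = 4 each). Every panel spans the same number of log2 units, and only the Klhl40 and Lrrc39 panels show groups that do not overlap.

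Klhl40 encodes the kelch protein that stabilises leiomodin-3 and nebulin. Its signals were 10.23, 10.16, 10.24 and 10.15 in HDAC5 KO samples, against 10.01, 10.04, 9.89 and 9.84 in WT samples. The lowest HDAC5 KO sample, replicate 4, lay above the highest WT sample, replicate 2. The means were 10.19 ± 0.04 in HDAC5 KO and 9.95 ± 0.10 in WT (SD, n = 4 each), a difference of 0.25 (SE 0.062), or a ratio of 1.19 with a 95% interval of 1.08 to 1.31. The unadjusted p was 0.00183 and the adjusted p was 0.248 in limma. The adjusted p lay between 0.146 and 0.530 over the 16 alternative settings, and the difference between 0.20 and 0.28. Its difference was the largest of the 10.

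Klhl41, known as sarcosin, stabilises nebulin. Its signals were 13.64, 13.65, 13.58 and 13.58 in HDAC5 KO samples, against 13.59, 13.57, 13.59 and 13.56 in WT samples. HDAC5 KO replicates 1 and 2 were above every WT sample and the other two lay within the WT range. The difference was 0.038 (SE 0.052, 95% interval -0.074 to 0.15, limma adjusted p = 0.906). It was 0.026 without HDAC5 KO replicate 2, and under quantile normalization it was 0.064 and the groups did not overlap. Of this pair of kelch genes with related clients, the interval of Klhl41 reached up to 0.15 and that of Klhl40 down to 0.11. The difference between their differences was not tested.

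Klhl31, the kelch gene whose loss in mice gives a myopathy, was the only one with 2 probe sets. The brighter read 13.90, 13.80, 13.84 and 13.90 in HDAC5 KO samples, against 13.89, 13.86, 13.83 and 13.90 in WT samples. The other read 13.86, 13.87, 13.84 and 13.87 in HDAC5 KO samples, against 13.86, 13.80, 13.86 and 13.85 in WT samples. Groups overlapped on both, with differences of -0.010 and 0.020 (limma adjusted p = 0.977 for the brighter). The difference of the brighter probe set was above 0 under quantile normalization, without HDAC5 KO replicate 2 and without WT replicate 4, as was the mean of both probe sets.

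Lmod3 encodes leiomodin-3, the client of KLHL40 in skeletal muscle. Its signals were 12.56, 12.71, 12.74 and 12.64 in HDAC5 KO samples, against 12.43, 12.57, 12.62 and 12.56 in WT samples. HDAC5 KO replicates 2, 3 and 4 lay above all WT samples, and replicate 1 lay within them. The difference was 0.12 (SE 0.065, 95% interval -0.025 to 0.26), with an unadjusted p of 0.0992 and an adjusted p of 0.714 in limma. Without HDAC5 KO replicate 1, the only one within the WT range, the groups were necessarily apart, and the difference was 0.15 (limma adjusted p = 0.764). Without WT replicate 1 the difference was 0.076 (limma adjusted p = 0.800).

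Lmod2 encodes the leiomodin best known from heart. Its signals were 11.29, 11.40, 11.50 and 11.41 in HDAC5 KO samples, against 11.21, 11.41, 11.68 and 11.28 in WT samples. The WT samples held both the lowest and the highest value, and replicate 3 stood highest. Lmod2 had the highest pooled within-group SD of the 10 genes, 0.16, with an SD of 0.083 in HDAC5 KO and 0.21 in WT. The difference was 0.0063 (SE 0.094, 95% interval -0.20 to 0.21, limma adjusted p = 0.995), and its sign turned under 5 of the 16 alternatives.

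The order of the samples in Lmod2 was that of the slow fibre markers. In both genotypes the 4 samples ranked the same way by Lmod2 as by the mean of 10 slow fibre markers, a pattern singled out after the values were seen. The marker mean was 10.82, 11.18, 11.41 and 11.26 in HDAC5 KO samples, against 11.42, 11.77, 11.81 and 11.52 in WT samples. The slow marker mean separated the genotypes only narrowly, with HDAC5 KO replicate 3 at 11.41 and WT replicate 1 at 11.42. Lmod2 did not separate them. Of the 80 pairs of a gene and one of 8 marker lists, the order matched in both genotypes for Lmod2 and slow markers alone, in HDAC5 KO for 2 and in WT for 4. Of 19928 genes outside the slow marker list, 5.15% had the order of the slow markers in HDAC5 KO samples, 2.66% in WT samples and 0.135%, or 27 genes, in both. The match was not tested. Lmod3 had the order of Lmod2 in WT samples and not in HDAC5 KO samples.

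**Figure D2:**
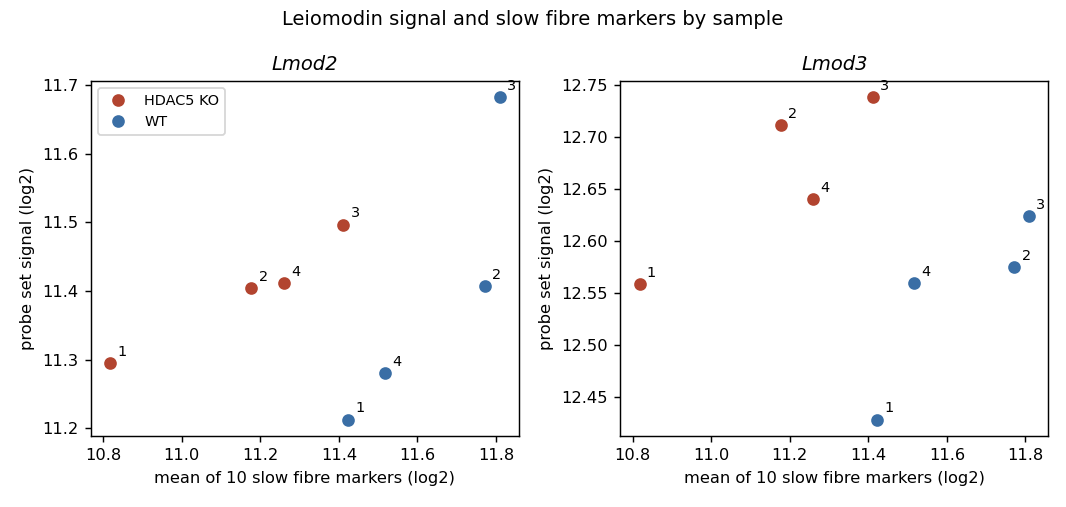
Signal of Lmod2 (left) and Lmod3 (right) against the mean of 10 slow fibre markers, both on the log2 scale; each point is a sample with its replicate number, HDAC5 KO in red and WT in blue. Within each genotype Lmod2 ascends with the marker mean, while the HDAC5 KO points lie to the left at 10.82 to 11.41, against 11.42 to 11.81 in WT.

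Neb encodes nebulin, the giant protein that spans the thin filament. Its signals were 14.43, 14.47, 14.45 and 14.48 in HDAC5 KO samples, against 14.48, 14.47, 14.50 and 14.50 in WT samples. HDAC5 KO replicates 2 and 4 overlapped the WT range and the other two lay below it. The difference was -0.027 (SE 0.051, 95% interval -0.14 to 0.084, limma adjusted p = 0.936), and it was 0.00072 under quantile normalization and -0.016 without HDAC5 KO replicate 1. The probe set read close to the arrays' maxima of 14.80 to 14.84, where signals can be compressed.

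Nrap, a nebulin relative found at the ends of fibres and in assembling myofibrils, had signals of 13.60, 13.77, 13.69 and 13.69 in HDAC5 KO samples, against 13.73, 13.74, 13.73 and 13.75 in WT samples. HDAC5 KO replicate 2 was the highest of all 8 samples and the other three lay below every WT sample. The SD was 0.067 in HDAC5 KO and 0.012 in WT, and the difference of -0.051 (SE 0.055, limma adjusted p = 0.872) had a 95% interval of -0.17 to 0.069. It was -0.023 without HDAC5 KO replicate 1, -0.078 without HDAC5 KO replicate 2 and -0.020 under quantile normalization.

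Xirp1 encodes Xin, which binds actin and filamin C. Its signals were 10.44, 10.56, 10.57 and 10.47 in HDAC5 KO samples, against 10.42, 10.48, 10.41 and 10.25 in WT samples. WT replicate 4 was the lowest and WT replicate 2 lay within the HDAC5 KO range. The difference was 0.12 (SE 0.066, 95% interval -0.025 to 0.26), with an unadjusted p of 0.0979 and an adjusted p of 0.713 in limma. Without WT replicate 4 it was 0.070 (unadjusted p of 0.265 in limma). Xirp1 and Klhl40 ranked the WT samples in the same order.

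Xirp2, the longer Xin protein and a MEF2 target in mouse heart, had signals of 13.78, 13.84, 13.82 and 13.82 in HDAC5 KO samples, against 13.72, 13.78, 13.72 and 13.73 in WT samples. Only HDAC5 KO replicate 1 and WT replicate 2 overlapped, so the groups were necessarily apart without either one. The SD was 0.027 in HDAC5 KO and 0.029 in WT. The difference was 0.077 (SE 0.051, 95% interval -0.036 to 0.19, limma adjusted p = 0.777). Its moderated SE is larger than its own spread gives, since limma draws each SD towards a value common to all genes. With a trended and robust variance the unadjusted p was 0.0243, against 0.162 in the fit reported here, and the adjusted p was 0.464.

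Lrrc39, also called myomasp, encodes an M-band protein that binds the slow myosin heavy chain. Its signals were 11.92, 12.04, 11.83 and 11.90 in HDAC5 KO samples, against 11.73, 11.68, 11.81 and 11.60 in WT samples. Every HDAC5 KO sample lay above every WT sample, with HDAC5 KO replicate 3 and WT replicate 3 only narrowly apart. The means were 11.93 ± 0.09 in HDAC5 KO and 11.71 ± 0.09 in WT (SD, n = 4 each), a difference of 0.22 (SE 0.067), or a ratio of 1.16 with a 95% interval of 1.05 to 1.29. The unadjusted p was 0.00649 and the adjusted p was 0.378 in limma, between 0.169 and 0.730 over the 16 alternatives.

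**Figure D3:**
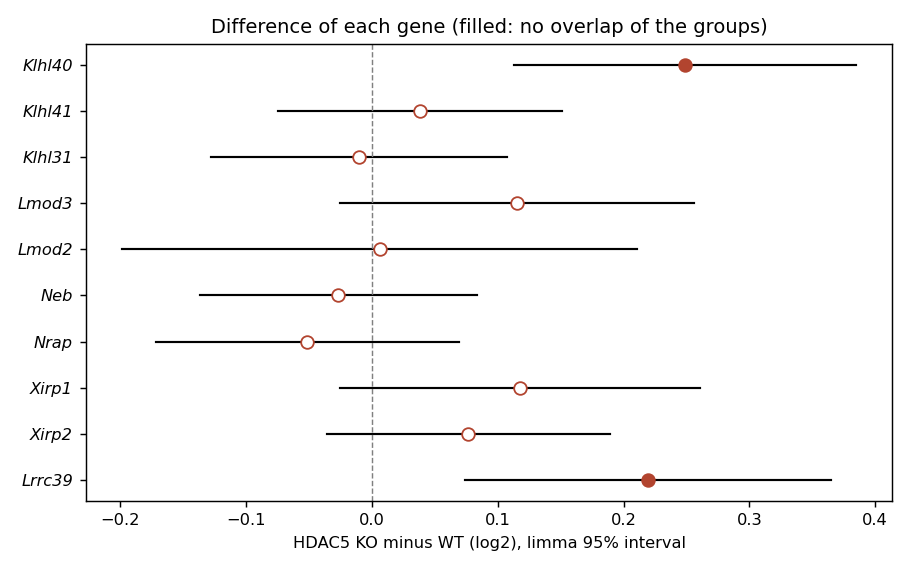
Difference in signal, HDAC5 KO minus WT, on the log2 scale for the 10 genes, with limma's 95% interval as a line. Filled points mark Klhl40 and Lrrc39, whose groups do not overlap; these 2 intervals start at 0.11 and 0.074, and the other 8 intervals include 0.

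Among themselves the genes differed in precision. Their within-group SD ranged from 0.020 in Neb to 0.16 in Lmod2, with a median of 0.10 over all genes. The signals of Neb, Klhl31, Xirp2, Nrap and Klhl41 were among the 200 highest of all genes, where the median SD was 0.046. Their moderated SEs, 0.051 to 0.055, were all larger than their own spread gives, as described for Xirp2. With a trended and robust variance the unadjusted p in limma was 0.324 for Neb, against 0.607 in the fit reported here. For Klhl41 it was 0.243, against 0.472. HDAC5 KO replicate 1 had the lowest HDAC5 KO value in 6 of the 10 genes and the highest in 0. Among the WT samples, replicates 1 and 4 had the lowest value in 4 genes each.

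The count of genes higher at an unadjusted p under 0.05 depended on the variance model. It was 4 of 10 with a trended and robust variance, when Lmod3 and Xirp2 joined Klhl40 and Lrrc39. Over all 19938 genes, 1025 were higher with that variance, against 942 in the fit reported here. The count of genes whose groups did not overlap was 4 without HDAC5 KO replicate 1, with Lmod3 and Xirp2 added. It was 4 without WT replicate 2, with Xirp1 and Xirp2 added, and 3 under quantile normalization, with Klhl41 added. Leaving out a sample can only keep or raise this count, and the share of all genes was not counted under these settings. Klhl40 and Lrrc39 were in both counts under every alternative run. For non-overlap, only quantile normalization could have changed this, since the other settings keep the values of these genes or remove samples. In no alternative did any of the 10 have an adjusted p under 0.05.

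**Figure D4:**
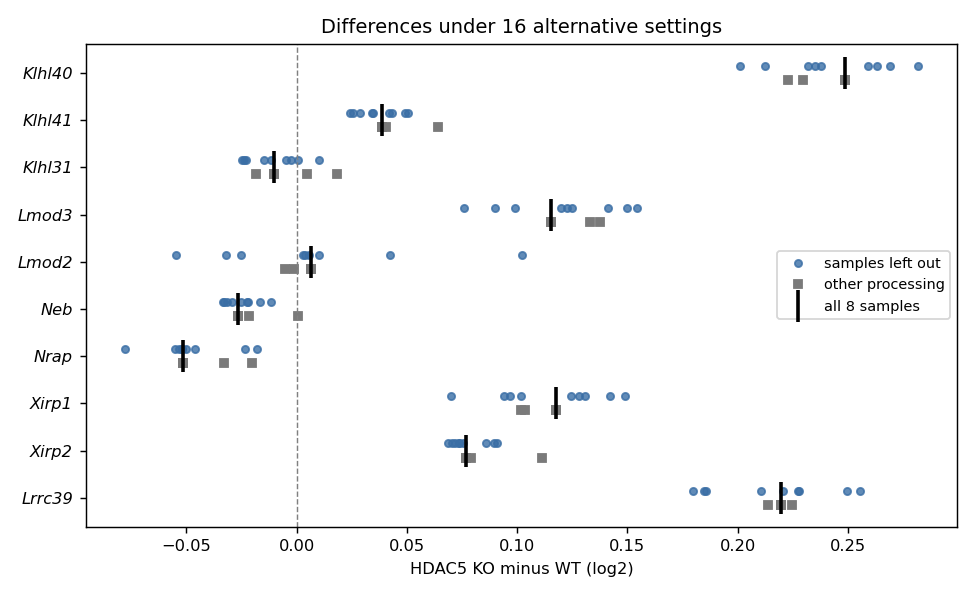
Difference, HDAC5 KO minus WT, on the log2 scale for each gene under 16 alternative settings: blue circles leave out samples, grey squares change the processing, and the black bar is the value from all 8 samples. Klhl40 stays between 0.20 and 0.28 and Lrrc39 between 0.18 and 0.26, while Klhl31, Lmod2 and Neb have values on both sides of 0.

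The profile of Klhl40, the gene of smallest p, was compared with those of all other genes by the root mean square gap over the 8 arrays after each gene's own mean was subtracted. The closest were Antxr2, a collagen-binding receptor, at a gap of 0.041, Nme5 (0.042), Suco (0.044), Mtap, a methionine salvage enzyme (0.045), and Slc39a6, a zinc transporter (0.046), where the median gene stood at 0.17. For Lmod2, the gene of largest p, they were Slc43a3 (0.054), Etv1 (0.056), Kitl (0.059), Frmd4b (0.060) and 1700055D18Rik (0.060). Within the 10 genes the closest pair was Neb and Nrap, at 0.034, and the most distant was Klhl40 and Lmod2, at 0.20. Neb and Nrap did not rank the samples in the same order in either genotype. The gap is small between any genes that vary little over the arrays.

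The thin filament that these proteins stabilise was examined next. Of 11 core genes (actins, tropomyosins and troponins), 0 had an adjusted p under 0.05, 0 were higher and 4 were lower in HDAC5 KO muscle at an unadjusted p under 0.05, and the median difference was -0.078. The slow troponins Tnnc1 (difference -0.76, SE 0.13, limma adjusted p = 0.0763) and Tnni1 (-0.71, SE 0.16, adjusted p = 0.176) had the smallest p. Skeletal actin, Acta1, and fast troponin C, Tnnc2, had the highest signals, with differences of -0.039 and -0.030. Tnnc1 had an adjusted p under 0.05 in limma with array weights and with dim genes left out. With the replicate number as a block, Tnnc1, Tnni1 and Tnnt1 had one, though the labels state no pairing by number. In mean signal the 11 genes lay at 12.63 to 12.98 in HDAC5 KO samples, against 13.00 to 13.23 in WT samples. They overlap with the slow fibre markers in Tnnc1, Tnni1, Tnnt1 and Tpm3. Of the 11 other genes of nemaline and related myopathies, 0 were higher and 3 were lower at an unadjusted p under 0.05 (median -0.055). Tpm3 was at -0.57 and Tnnt1 at -0.54 (adjusted p = 0.347 and 0.342 in limma) and Tnnt3, fast troponin T, at -0.031. Acta1, Tpm2, Tpm3, Tnnt1 and Tnnt3 are also in the core list, so Tpm3 and Tnnt1 are counted as lower in both lists.

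Genes that cap, cut or lengthen actin filaments showed small differences. Of 21, 2 were higher and 1 was lower at an unadjusted p under 0.05, 0 passed after adjustment, and the median was 0.021. Capza1, a subunit of the capping protein of the barbed end, differed by 0.24 (SE 0.068) and Dstn, an actin depolymerising factor, by 0.22 (SE 0.059); their adjusted p in limma was 0.313 and 0.295. The pointed-end cap Tmod4 differed by -0.056 and Cap2, a cyclase-associated protein, by -0.061.

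Of the 46 measured genes of the BTB-kelch family outside the 10, 4 were higher and 0 were lower at an unadjusted p under 0.05, 0 passed after adjustment, and the median was 0.063, near that of the 10. The mean was higher in HDAC5 KO muscle for 35 of the 46, and for 51.4% of all genes. Klhl28 differed by 0.22 (SE 0.075) and Klhl4 by 0.25 (SE 0.089), at an adjusted p of 0.455 and 0.462 in limma, and the brightest, Klhl24 and Ivns1abp, by 0.019 and -0.054. Of 8 genes of the cullin-3 ubiquitin ligase, for which kelch proteins serve as substrate adaptors, 0 were higher and 0 lower (median 0.066). Cul3 itself differed by 0.051 (SE 0.054), Cops5 by -0.027, Nae1 by 0.15 and Uba3 by 0.11.

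Among 15 MEF2, serum response and myogenic factors, 1 was higher and 1 was lower at an unadjusted p under 0.05, 0 passed after adjustment, and the median was 0.042. Hdac9, another class IIa deacetylase, differed by 0.37 (SE 0.079, limma adjusted p = 0.163) and Myf5 by -0.12 (adjusted p = 0.610). Mef2c and Mef2a, the brightest, differed by -0.023 and 0.0035. Of 27 Z-disc and M-band genes 1 was higher and 1 was lower (median -0.024). Csrp3, the muscle LIM protein, differed by 0.30 (SE 0.12) and Myoz2, a calsarcin of slow fibres, by -0.27 (SE 0.084), at an adjusted p of 0.566 and 0.387 in limma. Actn3 and Ttn, the brightest there, differed by -0.025 and -0.066. Of 20 adhesion genes active at fibre ends 3 were higher and 1 was lower (median 0.042). Lims1 differed by 0.19, Itgb1 by 0.12, Fermt2 by 0.022 and Ankrd2, a stretch-responsive gene of slow fibres, by -0.35 (limma adjusted p = 0.508, 0.590, 0.948 and 0.461). None of the genes in either list passed after adjustment.

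**Figure D5:**
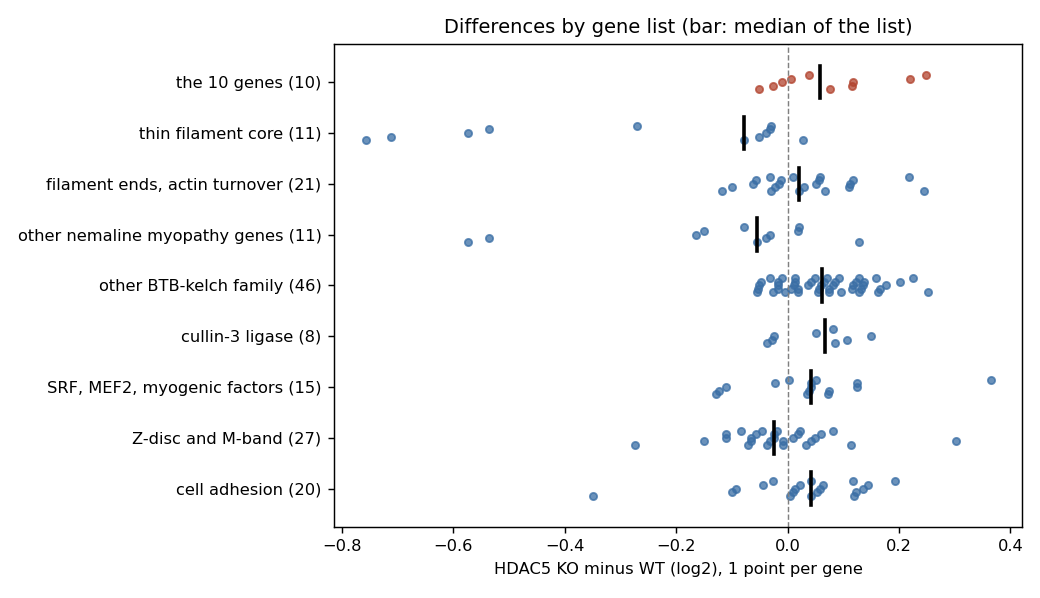
Difference, HDAC5 KO minus WT, on the log2 scale, 1 point per gene, for the 10 genes (red) and 8 lists of related genes (blue, number of genes in brackets), with the median of each list as a bar. The medians run from -0.078 in the thin filament core to 0.066 in the cullin-3 ligase, and the 10 genes have a median of 0.058.

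Some markers of other cells and of fibre type differed in mean between the genotypes, and in bulk muscle fewer cells of a type and less RNA per cell cannot be told apart. Of 10 slow fibre markers, 9 were lower and 1, Casq2 (0.35), was higher in HDAC5 KO muscle at an unadjusted p under 0.05. Tpm3 was the brightest and Tnnc1 had the smallest p. Of 12 fast fibre markers 0 were higher and 0 lower, with Atp2a1 at -0.013 and Casq1 at -0.055. The mean was lower in HDAC5 KO muscle for all 12, with a median difference of -0.022, while 51.4% of all genes had a higher mean. Their signals lay near the top of the arrays' range, where changes can be compressed. Whether compression affected them was not tested. Of 12 macrophage markers, 8 were higher and 0 lower, and their mean was 8.55 to 8.90 in HDAC5 KO samples, against 8.30 to 8.63 in WT samples. Lyz2 differed by 0.51 and Lyve1 by 0.50.

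Of 9 fibroblast markers 4 were higher and 0 lower, with a mean of 10.39 to 10.73 in HDAC5 KO samples, against 10.25 to 10.55 in WT samples. Dcn differed by 0.080 and Col3a1 by 0.44. Of 9 tendon markers 0 were higher and 4 lower, with a mean of 8.65 to 9.05 in HDAC5 KO samples, against 8.93 to 9.31 in WT samples. Fmod differed by -0.28 and Chad by -0.45. Of 6 Schwann cell markers 0 were higher and 1 lower, with Pmp22 at -0.21 and Mbp at -0.29. Of 8 endothelial markers 0 were higher and 0 lower, with Cdh5 at -0.0048 and Tek at 0.12. Of 6 satellite cell markers 0 were higher and 1, Myf5, was lower, with Cdh15 at -0.0070. None of these markers had an adjusted p under 0.05 in limma. The part of fibre type and of other cells in the differences of Klhl40 and Lrrc39 was not tested.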

How the data were processed

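RNA from gastrocnemius (150 ng per array, integrity number above 8, per the labels' protocols) was hybridised to 8 Affymetrix mouse gene arrays. The deposited log2 values, 1 per probe set and array, were made by the authors with Affymetrix Expression Console 4.0, per the submitters' processing notes. How background, summarisation and normalization were handled, and on which genome build, was not given in the sources used here. The log2 scale was read from the values. Such values compress changes near the floor and the ceiling of the arrays. No scan date or slide was given, so no batch could be examined, and the number of arrays limits the precision.

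The platform annotation listed a single symbol for 21789 of 35556 probe sets and more than one for 1621; it did not list the other 12146. For the 999 genes with several probe sets the one of highest mean was taken. The values were not normalized again. HDAC5 KO and WT were compared with limma 3.58.1 (lmFit, eBayes; R 4.3.3) in a model of genotype alone, with Benjamini-Hochberg adjustment over 19938 genes. Intervals are limma's 95% intervals. The fit was tested on simulated data. Figures were made in Python 3.11.15 with matplotlib 3.10.9.

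The 10 genes and the lists of related genes and cell markers, taken from textbook knowledge, were chosen with earlier results of these data known. Genes named from a list are the 2 of highest mean and the 2 of smallest p (1 each for markers), and the 5 of most similar profile were named for the member of smallest and of largest p. Alternatives were other probe set handling, quantile normalization, a trended and robust variance, array weights, dim genes left out, all probe sets tested, a replicate block and samples left out.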

Additional observations from a re-analysis of the deposited data

Results flagged for a closer look

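In 5 of 130 groups of 4 samples (65 genes named in the text, each genotype), 1 sample stood apart from the other three by most of the group's range. Chance gives about 1 in 20, or 6.5 groups. Among the 10 genes this was Xirp2 in WT, where replicate 2 read 13.78 against 13.72 to 13.73 in the others. Hdac5 in HDAC5 KO replicate 4 read 8.39, against 8.31 to 8.32 in the others. Tpm3 in HDAC5 KO replicate 1 read 11.59, against 12.23 to 12.33. Dcn in HDAC5 KO replicate 1 read 13.85, against 13.78 to 13.79. Klhl28 in WT replicate 4 read 9.28, against 9.52 to 9.53.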

How the results depend on the processing

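Over 16 alternatives, 0 of the 10 genes reached an adjusted p under 0.05, and the median difference stayed between 0.047 and 0.087. The count higher at an unadjusted p under 0.05 was 2 with all samples and 4 with a trended and robust variance. It was 3 under quantile normalization and with array weights, and 2 to 3 when samples were left out. Over all genes the count was 942 with all samples, 1025 with a trended and robust variance, 1188 under quantile normalization and 1004 with array weights. It was 734 to 1169 over all genes when samples were left out. The count of genes with all HDAC5 KO values above WT was 3 under quantile normalization, with Klhl41 added. It was 2 to 4 when samples were left out, and 4 without both HDAC5 KO replicate 1 and WT replicate 4. Leaving out samples cannot lower a count of this kind, and the share of all genes was not counted under these settings. The count with all HDAC5 KO values below WT was 0 to 1, the 1 being Nrap without HDAC5 KO replicate 2. Sign turned for 3 genes with differences near 0. Klhl31 was at 0.0048 over both probe sets, 0.019 under quantile normalization and -0.025 to 0.010 with samples left out, among them 0.00080 without WT replicate 4. Lmod2 was at -0.0014 with array weights, -0.0054 under quantile normalization and -0.055 to 0.10 with samples left out, and Neb was at 0.00072 under quantile normalization. The cause was not tested.

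Of the 151 genes of the related lists, 0 passed after adjustment, 1 (Tnnc1) with array weights or dim genes left out, and 3 (Tnnc1, Tnni1 and Tnnt1) with the replicate block. Those higher at an unadjusted p under 0.05 numbered 11, and 7 without HDAC5 KO replicate 2 or WT replicate 4. Same-numbered samples had residual correlations of 0.34, -0.11, -0.15 and 0.34 over all genes. The labels state no pairing by number. These correlations cannot settle whether there was one, since other pairings were not examined. With the replicate block the counts of the 10 genes were the same, with Klhl40 at an adjusted p of 0.194 and Lrrc39 at 0.310, and over all genes 30 passed in place of 13. Neb, at a mean of 14.47, read close to the arrays' maxima of 14.80 to 14.84, where signals can be compressed. Klhl31, Xirp2, Nrap and Klhl41 read lower, at means of 13.6 to 13.9. Whether compression affected any of these genes was not tested.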
